A study of Mus musculus with 6 samples.

Results

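Forkhead box (Fox) genes encode transcription factors that share the winged-helix forkhead DNA-binding domain. They were examined in mouse oocytes at the germinal vesicle (GV) stage, which have finished growth and have not yet resumed meiosis, as the genes of the count table with a protein-coding mouse symbol made of Fox, a subfamily letter from a to s and a number. The rule found 44 genes among 24421. The comparison was between 2 genotypes with 3 libraries each. The DKO mice were Ring1 -/-; Rnf2 f/f; Zp3-cre and the SKO mice were Ring1 -/-; Rnf2 f/f without the transgene, all on a mixed background of FVB, 129/Sv and C57BL/6J and about 3 months old. Ring1 and Rnf2 encode paralogous ubiquitin ligases at the core of Polycomb repressive complex 1 (PRC1), and Ring1 was null in both genotypes. Zp3-cre is active in growing oocytes. Only DKO carried it, so the transgene and the loss of Rnf2 cannot be told apart. Each library pooled 15 oocytes of 1 mouse, so oocytes that differ within a pool were averaged.

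Polycomb complexes keep developmental regulators silent in cells that do not need them, and many forkhead genes are among their known targets. Forkhead factors of subfamilies a to i, l, q and s mostly pattern germ layers and organs. The FoxO factors act below phosphatidylinositol 3-kinase (PI3K) and Akt, which keep them out of the nucleus, and Foxo3 is known for holding primordial follicles dormant. Foxm1 drives mitotic genes and Foxj1 the genes of motile cilia. By these and other textbook roles, 27 members were set down as developmental and 17 as broadly acting or germline. The second label is loose, since it also takes in Foxo6, Foxp2 and Foxp3, known from brain, vocal learning and regulatory T cells.

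Total counts ranged from 15521975 to 26652745 per library, and a level of 3 counts is 0.116 to 0.171 CPM, a count scaled to the TMM-adjusted library size. Rnf2 fell from 189.9 ± 11.8 to 36.6 ± 17.5 CPM (SD, n = 3 mice each; log2 fold change -2.38, SE 0.30, edgeR quasi-likelihood test, adjusted p = 0.000349). Ring1 held 1 to 13 counts in each library. Oocyte markers such as Gdf9, Bmp15 and Zp3 summed to 21189 to 22346 CPM over 12 genes in SKO. In DKO the sum was 12299 to 15950 CPM. Of the 12 markers, 7 fell, beside 7.41% of all tested genes. All but Figla lay above 100 CPM in SKO, where 18.8% of tested genes fell and 2.23% rose.

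In DKO oocytes, 9 of the 27 developmental forkhead genes rose, each from under 1 CPM in SKO, while 3 were tested and not called and 15 were too scarce to test. None of the 8 forkhead genes above 100 CPM in SKO passed the test in either direction. Of the 44 members, 28 passed the expression filter and were tested. In DKO, 12 of them rose and 0 fell (edgeR, adjusted p under 0.05). Across all 14845 genes tested, 17.3% were called higher and 7.41% lower. With library totals in place of TMM the median log2 fold change of all genes moved from 0.04 to 0.20 and the share of higher among all calls from 70% to 82.9%, and 13 members were higher and 0 lower. At an unadjusted p under 0.05, 1 member, Foxk2, was lower, and DESeq2 called 15 members higher and 0 lower. Of the 40 members with any count, 19 had all DKO libraries above all SKO libraries, against 21.1% of all genes with a count.

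The split followed the level in SKO. Of 16 members with at least 1 CPM in SKO, all tested, 3 rose, and 0 fell, against 11.5% and 8.87% of all tested genes at that level. Below 1 CPM, 12 of 28 members were tested and 9 rose, against 45.9% of tested genes at that level. Up to 0.1 CPM, 4 of 4 tested members rose, against 98.9% of tested genes. Over 0.1 to 1 CPM, 5 of 8 rose, against 37.2%. Of the 12 members tested below 1 CPM, only Foxq1 would have passed the filter on the SKO libraries alone. The other 11 entered through their DKO counts. Their direction was thus in part fixed by the filter, and their count is given as a description. Of the 17 members that pass on SKO alone, 3 rose and 0 fell, against 12% and 8.63% of all such genes, and their median log2 fold change was -0.0035, against -0.06 for all such genes.

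**Figure D1:**
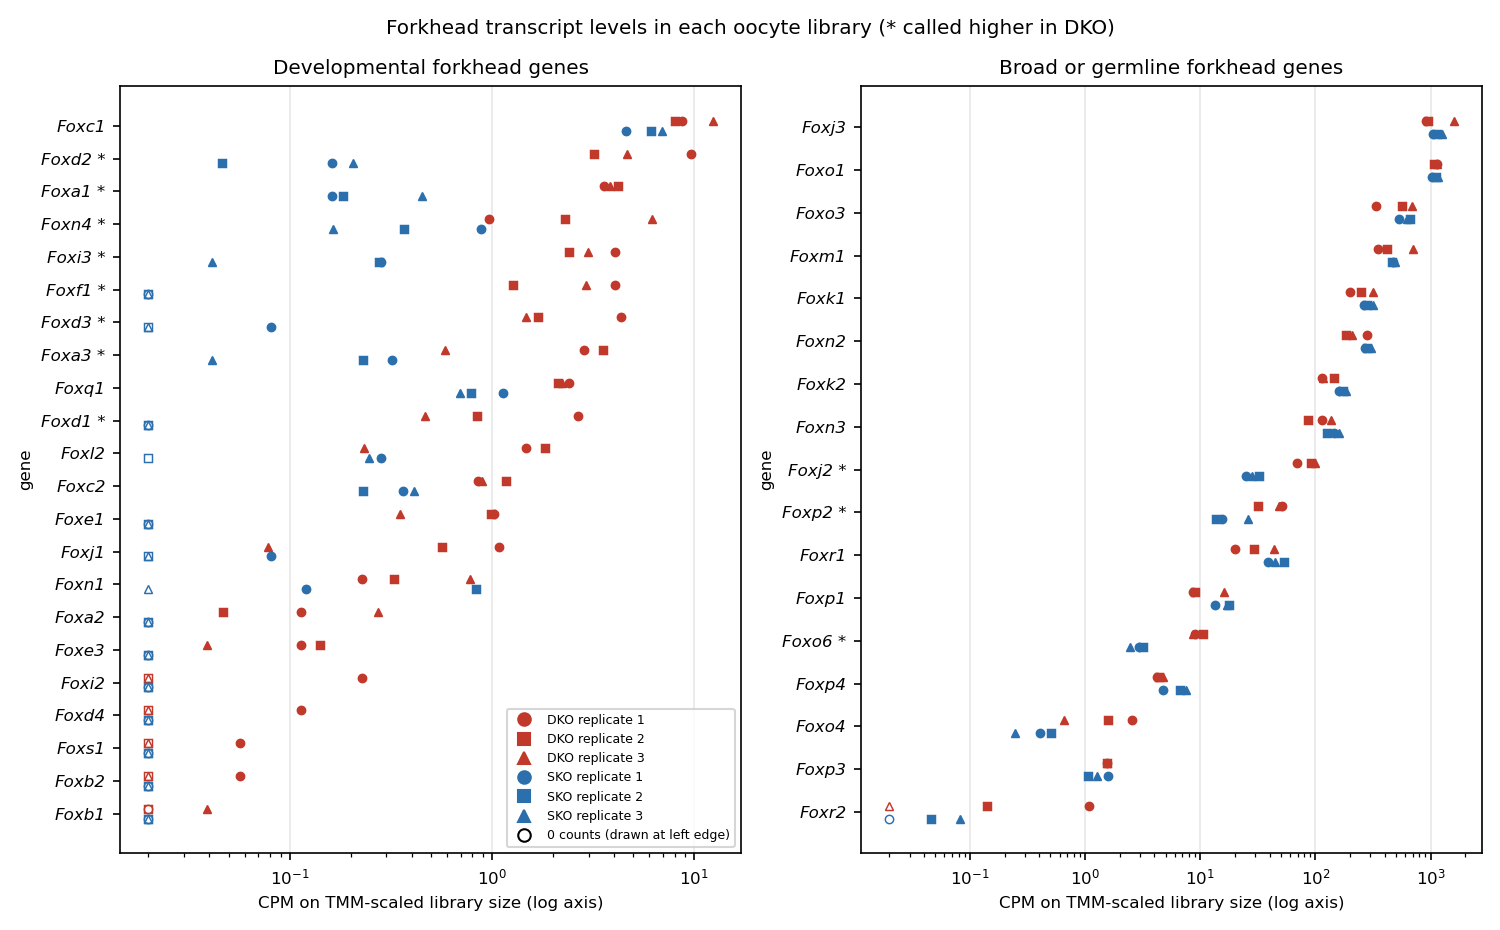
CPM on TMM-scaled library sizes (log axis) of forkhead genes with any count, in each of 3 DKO (red) and 3 SKO (blue) libraries; marker shape gives the replicate and open symbols at the left edge are 0 counts. Among developmental genes (left) the called genes, marked with an asterisk, start below 1 CPM in every SKO library; among the broadly acting genes (right) the DKO libraries of Foxj2, Foxp2, Foxo6 and Foxo4 all lie above SKO, those of Foxk2 all lie below, and the other genes overlap.

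The Foxa genes encode pioneer factors of endoderm and liver. Foxa1 had 63, 89 and 99 counts in the DKO libraries, in replicate order here and throughout, against 4, 4 and 11 in SKO. It rose from 0.266 ± 0.16 to 3.87 ± 0.30 CPM (SD, n = 3), with the closest DKO values of any risen developmental member (log2 fold change 3.83, SE 0.56, edgeR adjusted p = 0.000909; 4.44 without SKO replicate 3). The span of Foxa1 overlaps that of Ttc6, with no exon bases in common in the GENCODE M21 basic annotation. Ttc6 fell (log2 fold change -1.02, edgeR adjusted p = 0.0358). Foxa3 had 50, 75 and 15 counts in DKO and 8, 5 and 1 in SKO (3.51, SE 0.87, edgeR adjusted p = 0.0152), and its call was lost without DKO replicate 1 (adjusted p = 0.0523), without DKO replicate 2 (adjusted p = 0.0614) and under the stricter filter, which left it untested. Foxa2 had 2, 1 and 7 counts in DKO and 0 in SKO, below the filter.

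Of the Foxd genes, 3 rose and 1 was too scarce to test. Foxd1, a factor of the kidney stroma, had 47, 18 and 12 counts in DKO and 0 in every SKO library, at least 28.2-fold higher against 3 counts over the group (edgeR adjusted p = 0.0057). Its call was lost with libraries thinned to the smallest and under the stricter filter, each of which left it untested. Foxd2 had 169, 68 and 120 counts in DKO and 4, 1 and 5 in SKO, a rise from 0.137 ± 0.082 to 5.82 ± 3.37 CPM (log2 fold change 5.32, SE 0.68, edgeR adjusted p = 0.000379). Foxd3, which acts in neural crest and pluripotent cells, had 76, 36 and 38 counts in DKO and 2, 0 and 0 in SKO, a ratio of 82.3 (exact conditional 95% interval of the 2 sums 22.4 to 686; edgeR adjusted p = 0.00168). Its fitted log2 fold change of 6.22 was 5.58 without DKO replicate 1 and 8.77 without SKO replicate 1, where 0 SKO counts are left. All 3 genes were highest in DKO replicate 1. Foxd4 had 2 counts in DKO replicate 1 and 0 elsewhere.

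Foxf1, needed for lung and gut mesenchyme, had 71, 27 and 75 counts in DKO and 0 in SKO, at least 63.3-fold higher (edgeR adjusted p = 0.000967). Its paralog Foxf2 was listed at 0 in all 6 libraries. Foxi3, a factor of ectodermal placodes, had 71, 51 and 77 counts in DKO and 7, 6 and 1 in SKO (3.94, SE 0.68, edgeR adjusted p = 0.0023).

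Foxn4, which specifies retinal and spinal interneurons, was the least certain rise. It had 17, 49 and 160 counts in DKO and 22, 8 and 4 in SKO. The lowest DKO library, at 0.968 CPM, barely exceeded the highest SKO library, at 0.885 CPM (log2 fold change 2.73, SE 0.80, edgeR adjusted p = 0.0325). Without DKO replicate 3 the log2 fold change was 1.77 and the call was lost (adjusted p = 0.132). Leaving out DKO replicate 2 also ended the call (adjusted p = 0.0548), as did leaving out SKO replicate 2 (0.0957) or SKO replicate 3 (0.0986). Without SKO replicate 1 it held at 3.55 (adjusted p = 0.0295).

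Another 3 developmental members were tested and not called. All their DKO libraries lay above all SKO libraries, as in 24.7% of all tested genes, and Foxc2 entered the test only through its DKO counts. Foxc1, a mesenchyme and eye factor, was the best-counted developmental member in SKO, with 114, 133 and 168 counts there and 153, 171 and 318 in DKO (log2 fold change 0.72, SE 0.32, edgeR adjusted p = 0.125). Foxc2, which acts in lymphatic vessels, had 15, 25 and 23 counts in DKO and 9, 5 and 10 in SKO (1.52, SE 0.61, adjusted p = 0.0974). Foxq1 had 42, 45 and 57 counts in DKO and 28, 17 and 17 in SKO (1.36, SE 0.48, adjusted p = 0.0659). It was called with the filter on the SKO libraries alone (adjusted p = 0.0362).

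The other 15 developmental members were below the filter. Foxe1, a thyroid factor, had 18, 21 and 9 counts in DKO and 0 in SKO, at least 17.6-fold higher as a ratio of sums, and it was called in each fit that included it (adjusted p from 0.000568 with DESeq2 to 0.0222 without SKO replicate 3). Foxj1 had 19, 12 and 2 counts in DKO and 2, 0 and 0 in SKO, a ratio of sums of 18.1 (exact conditional 95% interval 4.63 to 156). This interval leaves out the spread between mice, and the genotypes overlapped in CPM. DESeq2 called Foxj1 (adjusted p = 0.0471), as did edgeR without DKO replicate 3 (adjusted p = 0.0206). With no filter edgeR did not (adjusted p = 0.0557), nor without SKO replicate 1, 2 or 3 (adjusted p = 0.0601, 0.145 and 0.148). Foxe3, a lens factor, had 2, 3 and 1 counts in DKO and 0 in SKO. Foxn1, the thymic epithelium factor, had 4, 7 and 20 counts in DKO and 3, 18 and 0 in SKO, so its genotypes overlapped. Foxi2 had 4 counts in DKO replicate 1, while Foxb1, Foxb2 and Foxs1 each had 1 count in a single DKO library. Foxf2, Foxh1, Foxi1 and Foxl1 were listed at 0 in all 6 libraries, which allows at most 0.116 to 0.171 CPM in each library by counting error. Foxh1 encodes the DNA-binding partner of Smad2 in Nodal signalling. In DKO, 18 to 22 of the 27 developmental genes had a count in each library, and in SKO 10 to 13. The DKO libraries had 15521975, 19813804 and 26652745 total counts and 22, 18 and 19 such genes. The SKO libraries had 25470098, 22990699 and 26437540 total counts and 13, 10 and 10 such genes. The part of sequencing depth in these numbers was not tested.

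Foxl2, the factor that maintains granulosa cell identity, had 26, 39 and 6 counts in DKO and 7, 0 and 6 in SKO and was untested. The CPM of its DKO replicate 3, at 0.233, lay below the highest SKO value, at 0.282. Foxl2 was called only without DKO replicate 3 (adjusted p = 0.0371). Other markers of granulosa and cumulus cells, of which oocytes are stripped by pipetting, summed to 312 to 347 CPM in DKO and 134 to 157 CPM in SKO over 25 genes. Of 20 tested, 7 were higher and 1, Cyp19a1, lower, beside 17.3% and 7.41% of all tested genes, to which the marker counts of other cell types also compare. Fshr and Ptgs2 rose by 5.91 and 4.52 on the log2 scale, Areg and Ptx3 were listed at 0 in all libraries, and Amh had 11, 30 and 9 counts in DKO and 61, 51 and 2 in SKO. The most abundant were Nr5a2, Ptgs2 and Cyp11a1, at 79.1, 3.79 and 14.6 CPM in SKO and 117, 87.1 and 36.9 CPM in DKO. Whether these markers bear on the forkhead rises was not tested. Fewer cells of a type and less RNA per cell cannot be told apart in such pools.

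Markers of theca, stroma and endothelium summed to 121 to 137 CPM in DKO and 120 to 160 CPM in SKO over 18 genes, with 5 higher and 1 lower of 12 tested. Their most abundant members were Pecam1 (60.9 CPM in DKO, 109 in SKO), Tek (32.7 and 25.5) and Kdr (11.6 and 3.67). Blood and immune markers summed to 10.2 to 24 CPM in DKO and 13.8 to 18.3 CPM in SKO over 14 genes, with 1 higher of 5 tested. Among their most abundant members were Laptm5 (10.04 CPM in DKO, 11.3 in SKO) and Cd68 (2.47 and 2.02).

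**Figure D2:**
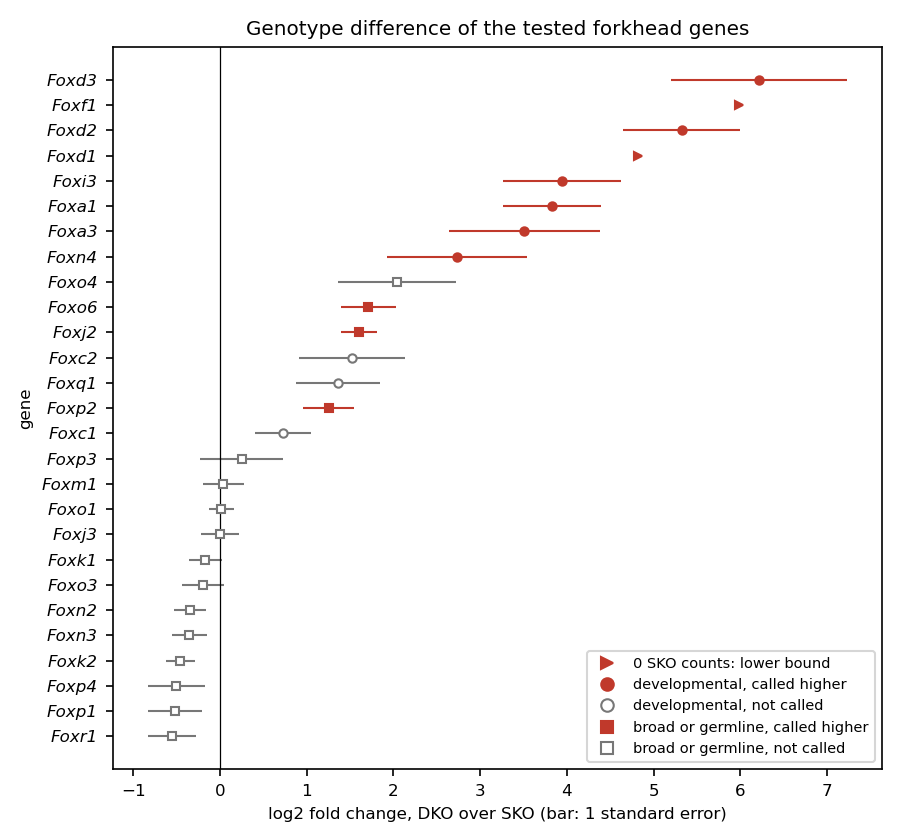
Log2 fold change of DKO over SKO for the tested forkhead genes described in the text, with bars of 1 standard error; circles are developmental and squares broadly acting or germline genes, red where called higher. Triangles mark Foxf1 and Foxd1, which had 0 SKO counts, at their lower bounds of 63.3-fold and 28.2-fold. The called developmental genes lie at the top and no called gene lies below 0.

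Promoter sequence was compared between members that rose and members that did not. RefSeq windows (GRCm38.p6, 250 bases before to 50 after a start site) were found for 28 of the 44 members. Those without one included Foxb1, Foxc2, Foxe1, Foxf1, Foxh1, Foxj1, Foxk1, Foxl1, Foxm1, Foxn2, Foxo4, Foxo6, Foxp2, Foxq1 and Foxs1. The 8 risen members with a window held 15 to 37 CpG dinucleotides, with a median of 25.5, against 14 over all 18281 genes with a window, 20 over all tested genes called higher and 21 over tested genes not called. The 10 tested members that were not called held 6 to 59 (median 32.5), and the 10 untested members 3 to 27 (median 10). Where a gene had several windows, the one with most CpG was taken.

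The 150 bases just before the start site are shown for 5 members with each CpG in capitals, to set risen genes beside an abundant gene and genes with no count. Foxd3 and Foxi3 rose, Foxo1 was abundant in both genotypes, and Foxf2 and Foxi1 were listed at 0.
Foxd3 (chr4:99656149-99656298, plus strand): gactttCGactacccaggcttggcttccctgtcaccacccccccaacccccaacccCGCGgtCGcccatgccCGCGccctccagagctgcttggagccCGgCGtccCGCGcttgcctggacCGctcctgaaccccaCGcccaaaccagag
Foxi3 (chr6:70956456-70956605, plus strand): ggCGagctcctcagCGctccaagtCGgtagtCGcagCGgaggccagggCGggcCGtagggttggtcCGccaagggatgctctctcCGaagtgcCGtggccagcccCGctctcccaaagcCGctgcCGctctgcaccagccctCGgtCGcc
Foxo1 (chr3:52268187-52268336, plus strand): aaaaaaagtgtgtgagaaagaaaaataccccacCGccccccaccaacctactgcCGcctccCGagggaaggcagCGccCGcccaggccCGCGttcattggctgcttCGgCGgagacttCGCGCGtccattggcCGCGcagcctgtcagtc
Foxf2 (chr13:31625666-31625815, plus strand): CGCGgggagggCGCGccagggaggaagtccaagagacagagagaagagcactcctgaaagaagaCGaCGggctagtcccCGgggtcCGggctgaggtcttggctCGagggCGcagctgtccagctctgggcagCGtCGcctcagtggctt
Foxi1 (chr11:34208090-34208239, minus strand): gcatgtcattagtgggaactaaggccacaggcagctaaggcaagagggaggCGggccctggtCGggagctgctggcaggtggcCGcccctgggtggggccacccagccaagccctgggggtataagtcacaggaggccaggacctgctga

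Foxd3, Foxi3, Foxo1, Foxf2 and Foxi1 held 12, 15, 14, 12 and 3 CpG in these stretches. A CpG-dense start was thus shared by risen, abundant and uncounted members, while Foxi1 was CpG-poor. The forkhead binding motif GTAAACA, searched on both strands, was found in 3.5% of all genes with a window and in 1 of the 28 members, Foxa1. It is shown there in capitals, with its first base 141 bases before the start site of the table's window.
Foxa1 (chr12:57546219-57546279, minus strand): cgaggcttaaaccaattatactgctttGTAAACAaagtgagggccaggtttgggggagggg

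Several forkhead genes lie next to each other, and their calls were not shared within a cluster. On chromosome 8, Foxf1, Foxc2 and Foxl1 follow each other with gaps of 28 and 8.8 kb. Foxf1 rose from 0 counts, Foxc2 was not called and Foxl1 had no count. The noncoding RNA gene Fendrr, 1276 bases from Foxf1, had 1 count in all. On chromosome 13, Foxq1, Foxf2 and Foxc1 are separated by 64.8 and 175.2 kb, with the uncounted Foxf2 between 2 genes that had counts in every library. On chromosome 4, Foxd2 rose while Foxe3, 15.5 kb away, reached at most 3 counts and was untested. In Foxf1, Foxc2, Foxq1, Foxc1, Foxd2 and Foxe3, all DKO libraries lay above all SKO libraries, as in 21.1% of all genes with a count. Foxe3 did so on 2, 3 and 1 counts in DKO against 0 in SKO. Foxf1, Foxc2 and Foxd2 entered the test only through their DKO counts. Foxl1 and Foxf2 had no count, so whether these clusters change together was not settled by the calls.

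**Figure D3:**
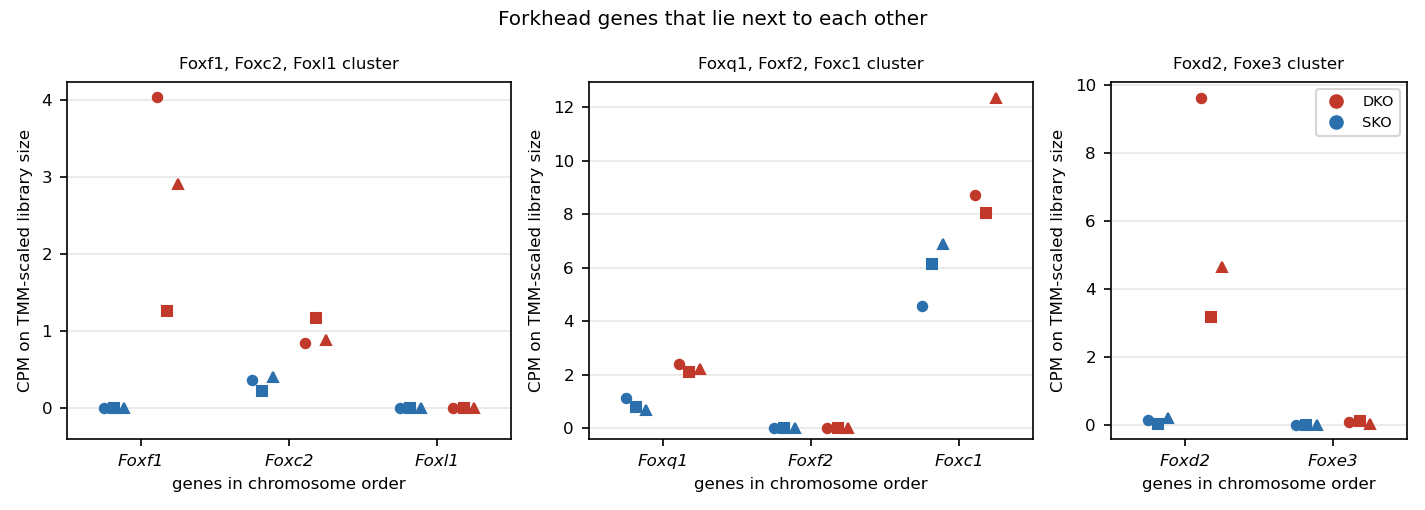
CPM on TMM-scaled library sizes of forkhead genes in 3 chromosomal clusters, in 3 DKO (red) and 3 SKO (blue) libraries, with marker shape for the replicate and genes in chromosome order. Foxf1 and Foxd2 rise from near 0 in DKO, while Foxl1, Foxf2 and Foxe3 stay at or near 0 in all libraries.

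The noncoding RNA gene Foxd2os, 359 bases from Foxd2, had 7, 11 and 15 counts in DKO and 0 in SKO and rose (edgeR adjusted p = 0.00811). Over all 39 genes within 100 kb of a risen member, other than forkhead genes, 27 were tested, 4 rose and 2 fell, that is 14.8% and 7.41%, beside 17.3% and 7.41% of all tested genes. The rises included Nova2, 48.0 kb from Foxa3, and Stil, 91.2 kb from Foxd2, and the falls were Ttc6 and Acacb.

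Among the genes set down as broadly acting or germline, 3 rose from levels that were already measurable. Foxj2 measured 69.4, 92.1 and 98.3 CPM in DKO and 25.1, 32.6 and 27.9 CPM in SKO, with no overlap (log2 fold change 1.60, SE 0.20, edgeR adjusted p = 0.00038). Foxo6, the FoxO member best known from brain, measured 8.94, 10.5 and 8.65 CPM in DKO and 2.94, 3.18 and 2.46 CPM in SKO (1.71, SE 0.32, adjusted p = 0.00331). Foxp2, known for its part in vocal learning, measured 51.3, 31.7 and 48.6 CPM in DKO and 15.4, 13.6 and 26.2 CPM in SKO (1.25, SE 0.30, adjusted p = 0.0123). The call of Foxp2 was lost without SKO replicate 1 (adjusted p = 0.0576) and without SKO replicate 2 (adjusted p = 0.0559). Foxj2, Foxo6 and Foxp2 rose by 3.03-fold, 3.27-fold and 2.38-fold.

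Per length, Foxo1, Foxo3 and Foxj3 were the leading forkhead transcripts of SKO oocytes. Foxo1 measured 199 ± 13.3, Foxo3 175 ± 18.9 and Foxj3 172 ± 15.1 RPKM (reads scaled by gene length and library size, on TMM-scaled sizes and the table's gene lengths; SD, n = 3). Foxo3 and Foxj3 differed by less than their spread. Foxm1 followed at 109 ± 2.66 RPKM, then Foxn2 (39.0 ± 2.23), Foxk1 (38.5 ± 3.48), Foxn3 (36.4 ± 4.13) and Foxk2 (32.3 ± 2.44), whose neighbours in this order lay within each other's spread. Foxr1 had 27.5 ± 4.27 and Foxj2 5.70 ± 0.76 RPKM. In DKO, Foxj2 reached 17.3 ± 3.03 RPKM, close to Foxr1 at 18.7 ± 7.17. Among the risen developmental genes, the highest DKO levels per length were those of Foxi3 (2.60 ± 0.69 RPKM) and Foxd2 (2.22 ± 1.29), against 201 ± 6.95 for Foxo1.

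None of the 8 members above 100 CPM in SKO was called, while 18.8% of the 2373 tested genes at that level fell and 2.23% rose. Foxo1 measured 1135, 1070.3 and 1139 CPM in DKO and 1026, 1116 and 1172 CPM in SKO (log2 fold change 0.01, SE 0.14, edgeR adjusted p = 0.962). Foxo3 measured 335, 569 and 697 CPM in DKO and 537, 665 and 628 CPM in SKO (-0.19, SE 0.24, adjusted p = 0.603), with the low DKO value in replicate 1. Foxj3 measured 912, 942 and 1592 CPM in DKO and 1061, 1133 and 1260.1 CPM in SKO. Foxm1 measured 348, 417 and 698 CPM in DKO and 472, 467 and 489 CPM in SKO, and shares 144 exon bases with Tex52, at 2.91 and 2.83 CPM. The DKO libraries of Foxo3, Foxj3 and Foxm1 spread more widely than the SKO libraries, with replicate 3 highest each time.

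Foxk2 was the single member whose DKO libraries all lay below the SKO libraries, as 19.6% of all tested genes did. It measured 114, 145 and 117 CPM in DKO and 159, 173 and 185 CPM in SKO (log2 fold change -0.46, SE 0.17, edgeR adjusted p = 0.0679) and was called lower only without DKO replicate 2 (adjusted p = 0.0345). Foxn2 had 281, 183 and 207 CPM in DKO and 269, 282 and 302 CPM in SKO, and was called lower without DKO replicate 1 (adjusted p = 0.0328). Foxr1 had 20.1, 29.4 and 43.8 CPM in DKO and 39.1, 53.2 and 45.0 CPM in SKO, and Foxp1 had 8.59, 8.92 and 16.1 CPM in DKO and 13.3, 17.8 and 17.2 CPM in SKO. Both were called lower without DKO replicate 3 (adjusted p = 0.0241 and 0.0371), the library in which they were highest in DKO. Foxk1 had 201, 248 and 315 CPM in DKO and 263, 283 and 314 CPM in SKO, and Foxn3 had 115, 85.4 and 137 CPM in DKO and 146, 127 and 159 CPM in SKO. Their genotypes overlapped.

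The remaining members were scarce. Foxo4 had 45, 34 and 17 counts in DKO and 10, 11 and 6 in SKO, with no overlap in CPM (log2 fold change 2.04, SE 0.68, edgeR adjusted p = 0.0527), and was called with DESeq2 (adjusted p = 0.0368), with library totals (adjusted p = 0.0454) and without DKO replicate 3 (adjusted p = 0.0221). Foxp4 lay between 4.21 and 7.47 CPM in all 6 libraries. Foxp3, the factor of regulatory T cells, had 23 to 40 counts per library, but shares 590 exon bases with Ccdc22 and 376 with Flicr, so its reads are uncertain. Foxr2 had 19, 3 and 0 counts in DKO and 0, 1 and 2 in SKO and was untested.

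**Figure D4:**
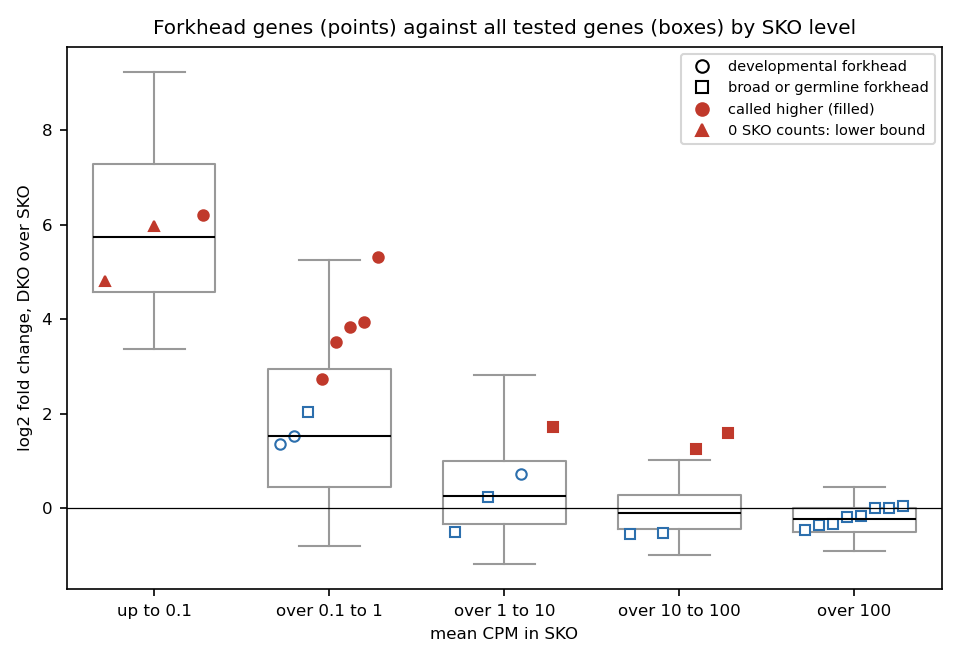
Log2 fold change of DKO over SKO by mean CPM in SKO; boxes show the quartiles of all tested genes with whiskers at their 5th and 95th percentiles, and points the tested forkhead genes described in the text (circles developmental, squares broadly acting or germline, filled red where called higher, triangles lower bounds for genes with 0 SKO counts). Foxo6, Foxj2 and Foxp2 lie above the upper quartile of their level, and the 8 members over 100 CPM lie between -0.46 and 0.04; boxes use fitted values, which for genes with 0 SKO counts are no bounds.

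Forkhead genes together summed to 4236 ± 814 CPM in DKO and 4358 ± 302 CPM in SKO on TMM-scaled sizes. They held 0.444 ± 0.048% of raw counts in DKO and 0.412 ± 0.017% in SKO (SD, n = 3), and Foxj3, Foxo1, Foxo3 and Foxm1 made up 77.3 ± 2.65% and 76.7 ± 0.40% of the forkhead counts. Developmental members summed to 51.9, 36.8 and 41.5 CPM in DKO and to 8.49, 9.21 and 9.20 CPM in SKO, of which Foxc1 alone gave 5.87 ± 1.18 CPM. They made up 1.06 ± 0.32% of forkhead counts in DKO and 0.206 ± 0.007% in SKO.

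Of 51 genes of the PI3K, Akt and FoxO pathway, 50 were tested, 4 rose and 7 fell, beside 17.3% and 7.41% of all tested genes. The median log2 fold change was -0.05, against 0.04 over all tested genes. Among the 48 that pass the filter on SKO alone, 2 rose and 7 fell (median -0.08), against 12% and 8.63%. Most lay above 10 CPM in SKO. Of tested genes over 10 to 100 CPM there, 9.16% rose and 9.67% fell. Over 100 CPM, 2.23% rose and 18.8% fell. The 4 rises of the pathway were the insulin receptor gene Insr (1.21), its adaptor genes Irs1 (7.25) and Irs2 (3.48), and the kinase gene Sgk3 (4.41). Irs1 had 1164, 1326 and 1254 counts in DKO and 5, 9 and 13 in SKO. Among the falls were Mtor (-1.12), Kit (-0.83), Tsc1 (-0.86) and Rictor (-0.72). Akt1 and Akt2, which encode kinases that phosphorylate FoxO factors, were not called (0.15 and 0.06).

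Of 48 genes known as FoxO targets, 40 were tested, 20 rose and 1, Rictor, fell (median 1.12), against 17.3% and 7.41% of all tested genes. Among the 34 that pass the filter on SKO alone, 15 rose and 1 fell (median 0.96), against 12% and 8.63%. The tested targets ranged from under 1 to over 100 CPM in SKO. Shares of all tested genes that rose were 37.2% over 0.1 to 1 CPM there and 19.5% over 1 to 10 CPM (medians 1.53 and 0.25). They were 9.16% over 10 to 100 CPM and 2.23% over 100 CPM (medians -0.11 and -0.24). Some of the 20 rises lost the call under at least 1 alternative. Gabarapl1, an autophagy gene, had 786, 911 and 1042 counts in DKO and 23, 13 and 29 in SKO (log2 fold change 5.54, SE 0.31, edgeR adjusted p = 2.21e-06). Klf4 rose by 2.97, the pro-apoptotic gene Pmaip1 by 6.68 and the metabolic coactivator gene Ppargc1a by 4.95. Of the FoxO transcripts themselves, Foxo1 and Foxo3 were not called, and Foxo6 rose (1.71, edgeR adjusted p = 0.00331). Foxo4 was not called by edgeR (2.04, adjusted p = 0.0527), with no overlap between genotypes. Insr, Irs2 and Rictor stand in both lists.

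Of 34 cell cycle genes known as Foxm1 targets, all tested, 0 rose and 4 fell (median -0.20). The same 17.3% and 7.41% of all tested genes apply, but all targets except Ccnd1 lay above 10 CPM in SKO. Of tested genes over 10 to 100 CPM in SKO, 9.16% rose and 9.67% fell (median -0.11). Over 100 CPM, 2.23% rose and 18.8% fell (median -0.24). At an unadjusted p under 0.05, 1 of the 34 targets was higher and 7 lower, and DESeq2 called 1 and 4. The falls were Kif23 (-0.59), Nek2 (-0.58), Plk1 (-0.71) and Prc1 (-0.54), and each call was lost under at least 1 alternative (adjusted p up to 0.0844, 0.1, 0.136 and 0.15). Of 39 motile cilia genes linked to Foxj1, 29 were tested, 4 rose and 3 fell (median 0.17), a share of calls near the 24.7% of all tested genes called in either direction. Among the rises were Drc1 (2.88), Gmnc (3.30) and Dnaic2 (4.08), while Dnah5 (-1.27), Ccdc114 (-1.52) and Dnah11 (-0.76) fell. Dnaic2 and Dnah11 each lost the call under at least 1 alternative, with an adjusted p of at most 0.0708 and 0.0735.

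Of 23 genes of Nodal and Smad signalling, in which Foxh1 acts, 15 were tested, 5 rose and 0 fell (median 0.77), beside 17.3% and 7.41% of all tested genes. At an unadjusted p under 0.05, 5 were higher and 1 lower, and DESeq2 called 5 and 0. Among the rises were Eomes (6.85), Smad7 (5.14) and Acvr2b (1.21). Among the 9 that pass the filter on SKO alone, 3 rose (median 0.03), beside 12% of all such genes. Foxh1 itself had no count in any library.

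**Figure D5:**
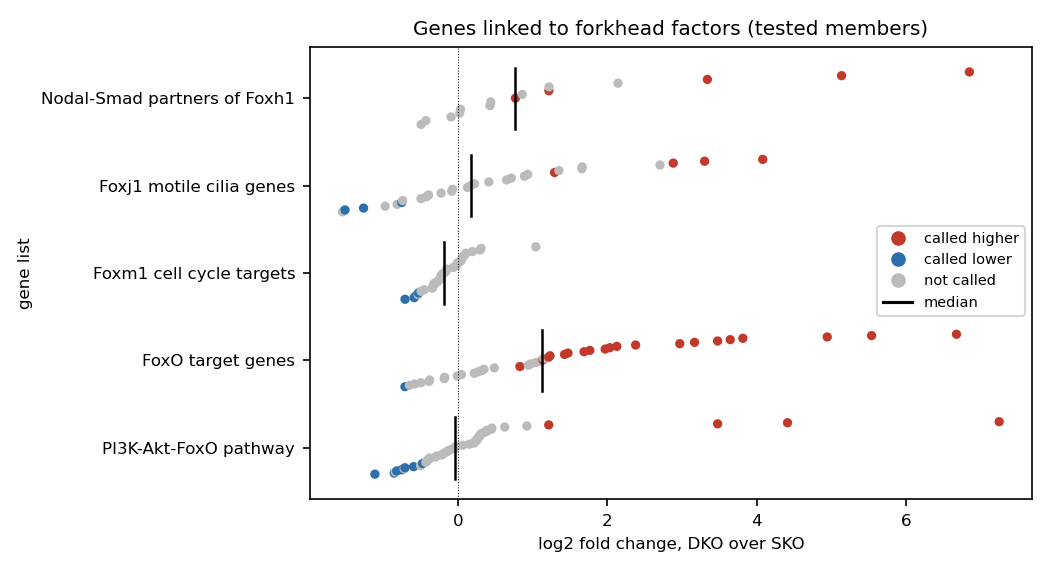
Log2 fold change of DKO over SKO of the tested genes in 5 lists linked to forkhead factors; each point is a gene, red where called higher, blue where called lower and grey where not called, and the black bar is the list's median. The FoxO targets have a median of 1.12, while the pathway above FoxO and the Foxm1 targets have medians near 0 (-0.05 and -0.20). The lists lie at different SKO levels, at which the medians of all tested genes also differ.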

How the data were processed

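RNA-seq was made from pools of GV oocytes, 3 libraries per genotype and 1 mouse per library. The values are counts as the authors deposited them, unnormalized, 1 row per Entrez identifier with a length in bases. Per the submitters' processing notes, STAR 2.5.0a was used, and GRCm38 and mm10 appear as builds. For the program that counted the reads, the use of strand and multiply aligned reads, the setting was not given in the sources used here. Of the sample columns, 0 sample columns were left unused. The Ovation kit amplifies RNA, so intervals and floors cover counting error only. Intervals of ratios and fold bounds also sum the 3 libraries of a genotype and leave out the spread between mice.

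Of 24421 identifiers, 24387 matched RefSeq symbols on GRCm38.p6, and the other 34 held at most 0.087% of any library's counts. In R 4.3.3, edgeR 4.0.16 (filterByExpr with minimum count 10 and minimum total 15, TMM, two-sided quasi-likelihood test, Benjamini-Hochberg adjustment) tested 14845 genes, and an adjusted p under 0.05 was a call. DESeq2 1.42.0 was an alternative. Each SE was derived from the F statistic, which at low counts may understate it. The code was tested on simulated data. For a gene without SKO counts, the fold given is a lower bound, computed with 3 counts summed over SKO. Replicate numbers come from the sample titles, and each library is its own mouse.

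Members and gene lists were chosen with earlier results of these data known. The rule for named genes takes every member, up to 4 called genes per direction from each pathway list by smallest adjusted p, and the 3 most abundant of each list of markers of other cell types. Some genes were named outside this rule, among them Fshr, Cyp19a1, Amh, Areg, Ptx3, Akt1 and Akt2. Single results on a few genes, among them 1 forkhead member that enters the counts, are not reported here.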

Additional observations from a re-analysis of the deposited data

How the results depend on the processing

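With the filter on the SKO libraries alone, 4 members were called higher in place of 12, because 11 of the 28 tested members no longer entered, and over all genes 1694 were higher in place of 2567. Library totals in place of TMM gave 596 lower genes in place of 1100. Leaving out single libraries gave 10 to 15 higher and 0 to 2 lower members, and 434 to 1501 lower genes over the whole table; with 2 libraries left in a genotype, the spread is pooled over both genotypes. The lower counts were 516, 464 and 434 without SKO replicates 1, 2 and 3. The cause was not tested. The other alternatives (RLE size factors, no filter, the stricter filter of 1 CPM in 3 libraries, thinned libraries and DESeq2) gave 10 to 15 higher and 0 lower members. With the SKO level split at 0.5 or 5 CPM in place of 1, 3 and 2 of the rises lay above it.

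With the replicate number as a block, 11 members were higher and 0 lower (2651 and 1364 genes overall), and the call of Foxn4 was lost (adjusted p = 0.054). Same-numbered libraries deviated from their group means with r = 0.139, 0.0773 and 0.0479 across genes. Only the first exceeds 0.1, and the labels name no shared batch or litter, so the numbers were not taken as pairs, although each library correlated best with its own number, a hint from the data and not the design. Members below about 3 counts per library cannot be read in either direction at this depth.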
